A study of Rattus norvegicus with 12 samples.

Results

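The miR-181 family comprised 4 miRNAs on the rat array, rno-miR-181a, rno-miR-181b, rno-miR-181c and rno-miR-181d (written without the species prefix from here on), taken by name from the 677 rat miRNAs measured, without the star strands. Soleus muscle came from 12 male Sprague-Dawley offspring at 1 year of age, with 1 Agilent 1-colour miRNA array per rat. The dams of 6 rats (control) ate a standard chow diet, and the dams of the other 6 (high fat) ate a diet rich in saturated fat and sucrose from before mating through pregnancy and lactation. All offspring were weaned onto chow, so that the groups differ in the diet of the dam and not in their own. The labels do not say which rats shared a dam, and p-values measure the spread between rats only. The study's methods count fewer rats than there are arrays, and all 12 arrays were used.

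A miRNA pairs with its target mRNAs mainly through its seed, the bases 2 to 8 from its 5′ end, and lowers their translation and stability. Members of the miR-181 family are known for tuning the sensitivity of the T cell receptor in developing T cells. In muscle they are known to increase as myoblasts differentiate and to repress the homeobox protein Hox-A11, an inhibitor of that process.

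The mature sequences are shown because they define the family and how closely its members resemble each other. They were taken from RefSeq (GRCr8), where the array's names matched entries of the 5′ arm for all 4 members. The capitals mark the seed.
miR-181a: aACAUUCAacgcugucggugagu
miR-181b: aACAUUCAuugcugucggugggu
miR-181c: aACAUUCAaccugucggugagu
miR-181d: aACAUUCAuuguugucggugggu

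The seed was the same in all 4, and of the 693 mature rat miRNA names in the RefSeq table only these 4 carried it. With positions counted from 1 at the 5′ end, miR-181b differed from miR-181a by A9U, C10U and A21G. miR-181d differed from miR-181b by 1 base, C12U. miR-181c was 22 bases long where the others were 23, and shared its first 10 and last 12 bases with miR-181a. Whether the array's probes keep such close sequences apart was not tested.

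The family comes from 3 places in the genome. On chromosome 13 the mature miR-181a of Mir181a-1 lies at chr13:52037081-52037103 (GRCr8, plus strand) and miR-181b of Mir181b1 at chr13:52037263-52037285, with starts 182 bases apart, within the span of a long non-coding RNA gene. On chromosome 3 the second copy of miR-181a (Mir181a2, chr3:43025601-43025623) and the hairpin of Mir181b2 (chr3:43026666-43026753) lie within the span of Nr6a1, a nuclear receptor gene. miR-181c (chr19:40888314-40888335) and miR-181d (chr19:40888484-40888506) lie on the plus strand of chromosome 19, with starts 170 bases apart and outside any other gene in the table. The array has 1 row for miR-181a and 1 for miR-181b, so that the 2 genes of each cannot be told apart. The miR-23a, miR-27a and miR-24-2 genes lie 28.5 kb away from miR-181c on the same chromosome, but on the minus strand.

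The deposited value is the scanner software's total signal of a miRNA, with a detection flag. A miRNA that was not detected is listed at 0.1. To compare rats, its array's signals were put relative to their own 75th percentile, taken over the 162 miRNAs that all arrays detected. This percentile lay between 864 and 1665 in control arrays and between 1178 and 1911 in high fat arrays, and a common factor returned the values to signal units. Scaled signals below 5.17, the floor, were set to it. Between 177 and 220 miRNAs were detected per control array and between 190 and 212 per high fat array. The muscle miRNAs miR-1, miR-133a, miR-133b and miR-206 were detected in all 12 rats. Rat H3, of the high fat group, stood apart from all others in some markers of the tissue, in both directions. Its summed scaled signal was 366 for the slow fibre miRNAs miR-499 and miR-208b-3p, where the other rats had 4588 to 9249, and 4863 for the vessel miRNAs miR-126, miR-143 and miR-145, where they had 8811 to 12000. For the red blood cell miRNAs miR-144 and miR-451 it was the highest, at 3295, where the others had 458 to 2636. For the muscle miRNAs named above it was 244719, within the 142443 to 280572 of the others. The differences between the diets are therefore given with and without H3, the arrays being scaled anew without it. Each of the 2 slides carried 3 control and 3 high fat rats. The rats' labels begin with A, C or H, letters that are not explained and that fall unevenly on the groups, with 3 control rats and 1 high fat rat under A, 2 and 2 under C, and 1 and 3 under H.

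miR-181a was detected in all 12 rats, with listed signals from 151 to 351 (median 212) in control offspring and from 196 to 291 (median 241) in high fat offspring. The software's own error of these signals was 7.61% to 8.19%. After scaling, the control rats lay between 226 and 285 (median 237) and the high fat rats between 145 and 280 (median 210). The groups overlapped, with rat A37 the lowest and rat H1 the highest of the high fat group. The mean scaled signal was 243 ± 22.4 (SD, n = 6) in control and 214 ± 44.6 (SD, n = 6) in high fat offspring.

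miR-181b, the partner of miR-181a in both of its loci, was also detected in all 12 rats. Its listed signals ran from 40.7 to 101 (median 57.1) in control offspring and from 46.4 to 80.7 (median 56.1) in high fat offspring, with a software error of 8.30% to 11.9%. The scaled signals were 53.0 to 81.9 (median 64.1) in control and 36.0 to 92.7 (median 50.7) in high fat offspring. Both the lowest and the highest rat were in the high fat group, again A37 and H1. The mean scaled signal was 65.4 ± 9.48 (SD, n = 6) in control and 55.5 ± 19.6 (SD, n = 6) in high fat offspring.

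miR-181c was detected in 11 of the 12 rats, all but H3. Its listed signal in control offspring was 13.1 in C73, 46.9 in A110, 11.6 in C60, 18.1 in H10, 50.4 in A89 and 53.6 in A75. In high fat offspring it was 15.6 in C51, 35.5 in H1, 33.4 in C25, 17.2 in H20 and 34.1 in A37. The control rats therefore lay in 2 separate ranges, with C73, C60 and H10 at scaled signals of 17.1 to 19.5 and A110, A89 and A75 at 41.0 to 59.0, while the detected high fat rats lay between 14.6 and 40.8. The mean scaled signal was 33.3 ± 17.6 (SD, n = 6) in control and 20.9 ± 12.2 (SD, n = 6, with H3 at the floor) in high fat offspring. The software's error was 10.8% to 23.3% of the signal.

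miR-181d, which lies beside miR-181c, was near the limit of detection and was seen in 5 of the 12 rats. The listed signals were 12.1 in A110, 15.9 in A89 and 13.6 in A75 among control offspring, and 8.50 in H1 and 9.23 in C25 among high fat offspring. Its software error was 20.5% to 32.0%. Detection thus occurred in 3 of 6 control and 2 of 6 high fat rats (Fisher's exact test, two-sided, p = 1), and on both slides, in 2 rats of the first and 3 of the second.

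**Figure D1:**
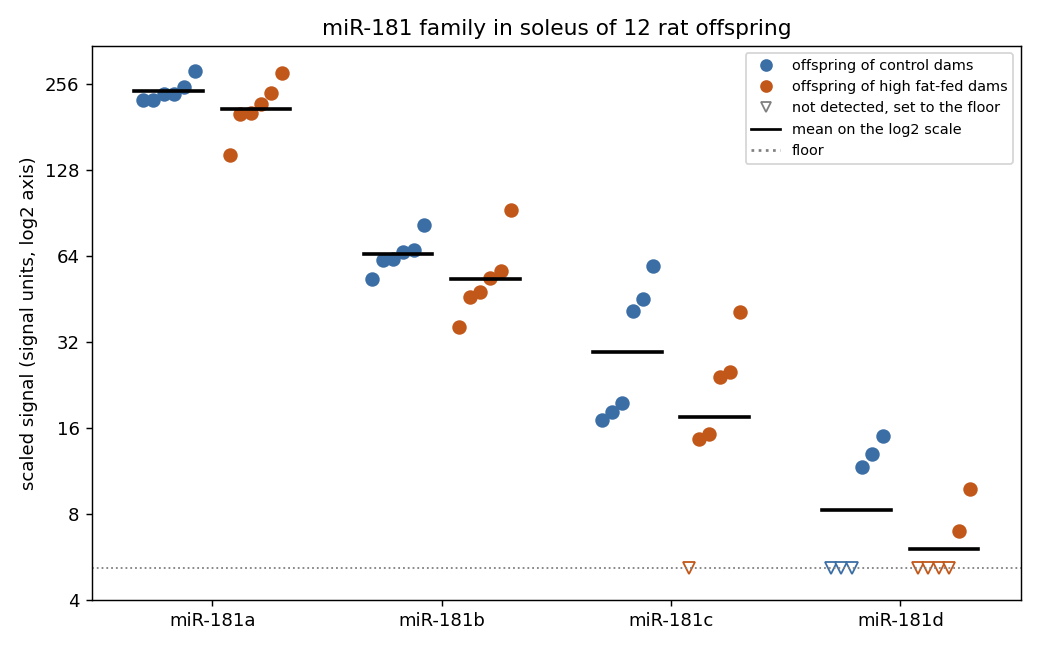
Scaled signal (log2 axis, signal units) of the 4 miRNAs in each rat, by the diet of the dam. Points are rats, open triangles are rats in which the miRNA was not detected and was set to the floor of 5.17, and lines are means on the log2 scale. The groups overlap for each member, miR-181c of the control rats falls into 2 ranges, and signals of different probes are not comparable in level.

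The other strands of the same hairpins, miR-181a-1*, miR-181a-2*, miR-181b-1*, miR-181b-2*, miR-181c* and miR-181d*, were detected in 0 of the 12 rats and are listed at 0.1 throughout. No fold was computed for these 6.

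Set beside the other miRNAs, the members varied to different degrees between rats of the same group. The within-group SD on the log2 scale was 0.24 for miR-181a, 0.35 for miR-181b and 0.91 for miR-181c, where the median of the 193 miRNAs detected on at least 6 arrays was 0.35. For miR-181c, 18 of the 193 had a larger SD, and without H3, when it was 0.71, 24 had. Dim miRNAs vary more, and the median SD of the 75 miRNAs with a mean scaled signal of 10 to 100 was 0.47, or 0.42 without H3.

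The study asked which miRNAs differ in muscle of offspring whose dams ate the high fat diet. Of 193 miRNAs, 0 (0%) passed a Benjamini-Hochberg adjusted p of 0.05 in limma. At an unadjusted p under 0.05 it gave 0 higher (0%) and 2 lower (1.04%), and the methods' t-test gave 2 as well. None of the 3 tested members was among them, and miR-181d, detected on 5 arrays, was not one of the 193. The groups overlapped for all 4 members, as for all 193 miRNAs (0% without overlap). The means of all 4 members were lower in high fat offspring, which was also so for 154 of the 193 miRNAs (79.8%). That share depends on the scaling, since 40 of the 193 (20.7%) were lower without it, and on H3, without which 121 of 191 (63.4%) were lower. The median log2 fold change of the 193 was -0.17 with scaling, 0.14 without it and -0.034 without H3.

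The high fat over control log2 fold change of miR-181a was -0.21 (limma, standard error 0.16, 95% interval -0.54 to 0.13, adjusted p = 0.685). An exact two-sided permutation of the rats between the groups gave p = 0.182, and 0.19 when rats were exchanged only within slides. Without H3 the log2 fold change was -0.11, without A37, the lowest rat, -0.060, and without scaling it was positive, at 0.10. The first slide gave 0.0055 and the second -0.42, a difference between slides that was not tested.

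For miR-181b it was -0.29 (limma, standard error 0.20, 95% interval -0.73 to 0.15, adjusted p = 0.685, exact two-sided permutation p = 0.197), and 0.020 without scaling. The slides gave 0.036 and -0.61, and without H3 it was -0.18. Other single rats moved it too, in both directions. Without A37, the lowest rat of its group, limma gave -0.14 (unadjusted p = 0.501, adjusted p = 0.942), and without H1, the highest, -0.45 (unadjusted p = 0.0131, adjusted p = 0.423).

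For miR-181c the log2 fold change was -0.76 (limma, standard error 0.47, 95% interval -1.78 to 0.26, adjusted p = 0.685), or 0.59-fold. With an exact two-sided permutation p of 0.191 it was within the spread between rats. By slide it was -0.71 and -0.80, and without scaling it was -0.45. The -0.71 includes rat H3, in which the miRNA was set to the floor. The other high fat rats of that slide, C51 and H1, had scaled signals of 15.3 and 40.8. Its control rats C73, C60 and A110 had 17.1, 18.2 and 45.3, an overlapping range. H3 also carried much of the log2 fold change over both slides, which was -0.32 without H3. A block for the label letter gave -0.36.

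The log2 fold change of miR-181d was -0.45 (limma, standard error 0.32, 95% interval -1.13 to 0.23, unadjusted p = 0.180, exact two-sided permutation p = 0.273), with 7 of the 12 rats at the floor. It was fitted together with the 193 and did not enter their adjustment. The upper end of the interval is 1.18-fold higher in high fat offspring. The study lists miR-181d as higher in high fat offspring, with a fold change above that upper end. The value here has the opposite sign, and what makes the 2 results differ was not tested. The study chose miR-181d on these same arrays, so that the comparison here is not independent evidence. The size of the log2 fold change here depends on the value given to undetected rats. With a floor 4 times lower it was -0.78 (standard error 0.86), and with undetected rats at the listed 0.1 it was -1.40 (standard error 1.94). It was -0.39 without H3 and -0.28 without A75. A block for the label letter gave -0.23 (limma, unadjusted p = 0.466), and quantile normalization -0.92 (limma, unadjusted p = 0.103). The slides gave -0.084 and -0.81.

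**Figure D2:**
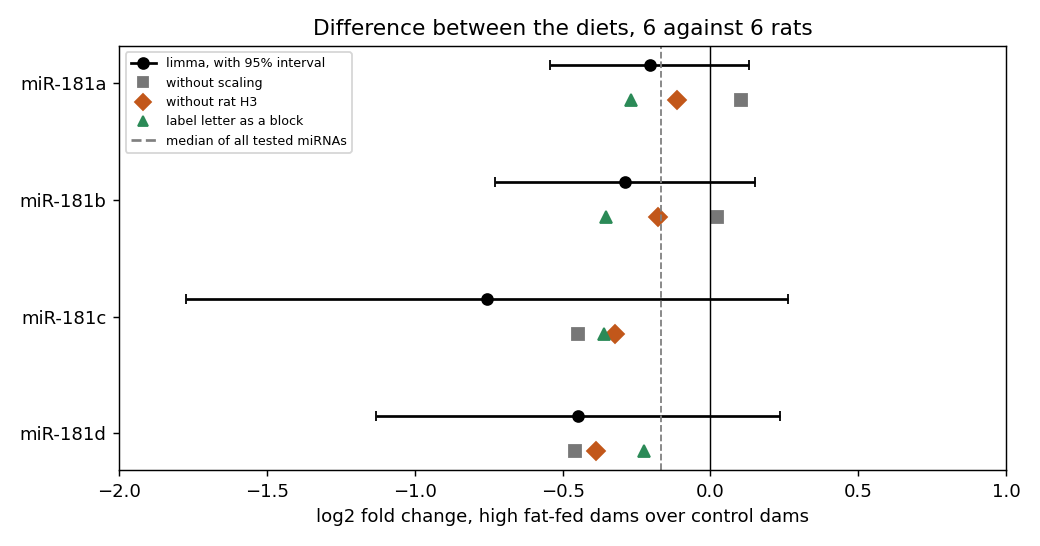
Log2 fold change of each member, high fat-fed dams over control dams, with the 95% interval from limma (black) and the values without scaling (grey squares), without rat H3 (diamonds) and with a block for the label letter (triangles). All 4 intervals include 0, miR-181a and miR-181b move above 0 without scaling, and the dashed line is the median of all 193 tested miRNAs (-0.17).

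Among the control rats, the label letters moved with miR-181c and miR-181d. The 3 control rats with letter A were the 3 with the high miR-181c signals, 41.0 to 59.0, and were also the 3 control rats in which miR-181d was detected, at scaled signals of 11.6 or more. The single high fat rat with letter A, A37, had miR-181c at 24.2 and no detected miR-181d. In the high fat group the highest miR-181c was 40.8, in H1, and miR-181d was detected in H1 and C25. Of the 193 miRNAs, 2 (1.04%) had the 3 A control rats above the other 3, miR-181c and the hypoxia-induced miR-210, and 4 (2.07%) had them below. Rats divided 3 against 3 also separate by chance for some miRNAs, so that these small shares do not mark miR-181c out. Within letter A the log2 difference of miR-181c, high fat minus control, was -0.98 with 1 high fat rat. It was 0.15 within letter C and -0.42 within letter H. Letter H holds 1 control rat, H10 with miR-181c at 19.5, beside H1 at 40.8, H20 at 14.6 and H3 at the floor. For miR-181d the differences were -1.34 within A, 0.21 within C and 0.31 within H. Since A holds mostly control rats and H mostly high fat rats, the letters are in part confounded with the diets, and their part in the differences was not tested.

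Whether members changed unequally was asked within arrays, since the log2 difference of 2 members on 1 array does not depend on the scaling unless a value is at the floor. The shift of miR-181a minus miR-181b between the diets was 0.084 (interval of shifts not rejected by the exact permutation test, -0.19 to 0.28, exact two-sided p = 0.442). Without H3 it was 0.066, and without H1 0.16. The shift was 0.55 for miR-181a minus miR-181c (interval -0.58 to 1.72) and 0.47 for miR-181b minus miR-181c (interval -0.54 to 1.56), with exact two-sided p-values of 0.318 and 0.349. Both rest largely on H3, with miR-181c at the floor, and were 0.21 and 0.14 without it. Adjusted over all 6 pairs, the exact two-sided p of these 3 was 0.590. None of the 3 was separated from 0, and a p above the threshold does not show that the members moved alike. The shifts of the 3 pairs with miR-181d are given as values only, since in 7 of the 12 rats they are the signal of the partner less the floor. They were 0.24 for miR-181a, 0.16 for miR-181b and -0.31 for miR-181c, and without H3 0.28, 0.21 and 0.065. Without scaling they were 0.56, 0.48 and 0.0083.

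**Figure D3:**
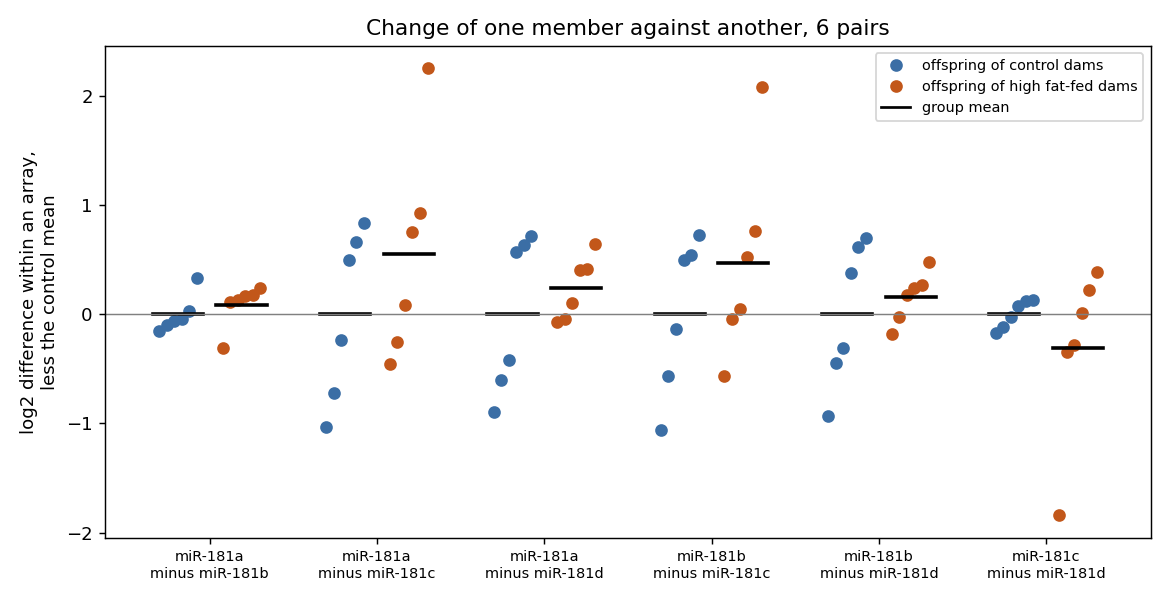
Within-array log2 difference of each pair of members, less the mean of the control rats, with 1 point per rat and a line at each group mean. Over all 12 rats the points of miR-181a minus miR-181b lie closest together, and rat H3, in which miR-181c is at the floor, is the extreme high fat point of each pair with miR-181c.

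miR-181a and miR-181b varied together from rat to rat. After the group means were removed, the log2 signals of miR-181a and miR-181b over the 12 rats had a Pearson r of 0.87 (permutation p = 0.00129, adjusted over 6 pairs p = 0.00744) and a Spearman rho of 0.62 (permutation p = 0.0384, adjusted p = 0.115). Without A37 and H1, the 2 rats farthest from the median, r was 0.60. The slides gave 0.82 and 0.96, and the signals without scaling 0.89. miR-181a and miR-181c had an r of 0.20 (permutation p = 0.545, rho = 0.31, p = 0.320, r without the same 2 rats 0.23). miR-181b and miR-181c had an r of 0.44 (permutation p = 0.157, rho = 0.50, p = 0.104, r without them 0.48). The adjusted p-values of these r were 0.545 and 0.236. Neither r held on both slides, at 0.59 and 0.065 for the former and 0.80 and 0.085 for the latter. No r is given for the 3 pairs with miR-181d, with 7 rats at the floor.

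miR-181d was detected in the rats with the highest miR-181c. The 5 rats at the top for miR-181c, at scaled signals of 25.1 to 59.0, were the 5 in which miR-181d was detected, and the other 7 had miR-181c at 24.2 or less. The last rat above this limit, C25 at 25.1, and the first below it, A37 at 24.2, differ by less than the software's error of either signal (14.0% and 13.6%). Of the 5 rats highest in miR-181a, 3 had miR-181d detected, and of the 5 highest in miR-181b also 3. Those counts turn on near ties as well. For miR-181b the fifth rat, H10 at 62.4, lacked miR-181d and the sixth, A75 at 62.2, had it, while for miR-181a the fifth, A75 at 237.0, had it and the sixth, C60 at 236.3, lacked it. Of the 5 brightest arrays by their 75th percentile, 3 had it detected. These counts describe the 12 rats and were not tested.

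**Figure D4:**
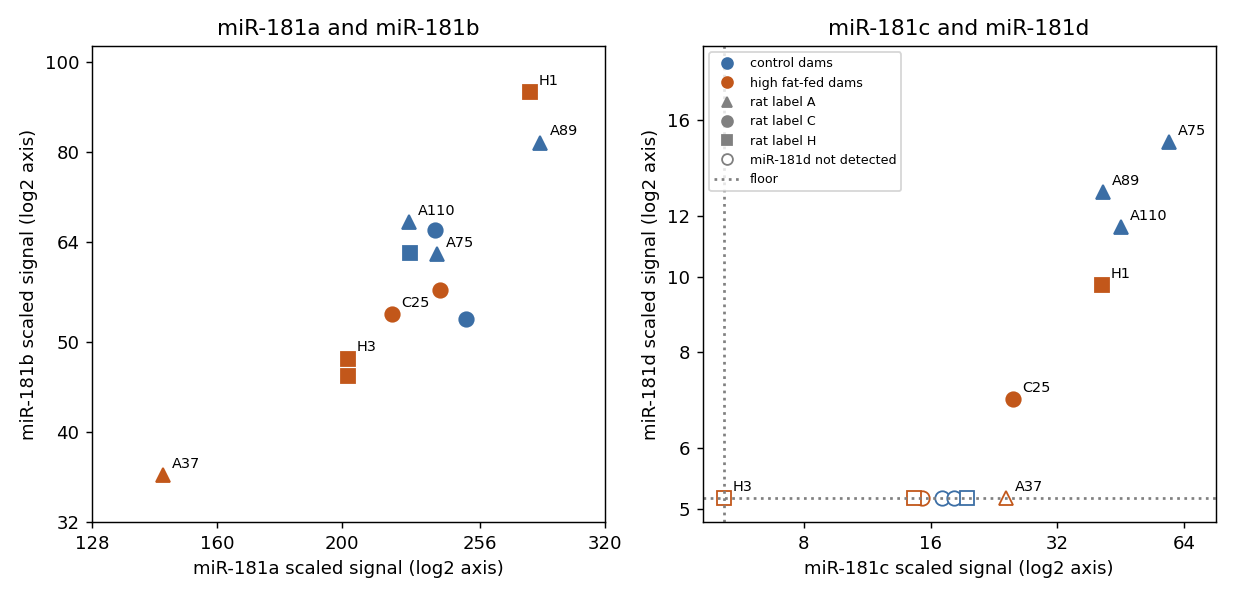
Scaled signals (log2 axes) of miR-181b against miR-181a and of miR-181d against miR-181c, 1 point per rat, coloured by the diet of the dam and shaped by the label letter. Open symbols are rats without detected miR-181d, dotted lines are the floor of 5.17, and the 5 rats with detected miR-181d are those with the highest miR-181c.

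Among the 160 other miRNAs detected on all arrays, those most like miR-181a over the 12 rats were miR-103 (r = 0.90, rho = 0.87), miR-34a (r = 0.89, rho = 0.78) and miR-25 (r = 0.84, rho = 0.59), where the median r was 0.32. Without A37 and H1 these r became 0.67, 0.65 and 0.39. Of the 160, 2 had a higher r with miR-181a than miR-181b did, while 0 had a higher r with miR-181b than miR-181a did. Most like miR-181b were miR-103 (r = 0.84, rho = 0.56), let-7i (r = 0.78, rho = 0.62) and miR-210 (r = 0.78, rho = 0.57), against a median r of 0.29, and without the same 2 rats r was 0.26, 0.26 and 0.54. These miRNAs were chosen as the highest, so that no p is given for them, and all points share the scaling of their array.

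The cluster of miR-23a, miR-27a and miR-24, on the other strand of chromosome 19, was detected in all 12 rats. The scaled signal of miR-23a was 15491 ± 2059 (SD, n = 6) in control and 13369 ± 3622 (SD, n = 6) in high fat offspring, with a log2 fold change of -0.26 (limma adjusted p = 0.685). For miR-27a the log2 fold change was -0.34, for miR-24 -0.31 and for miR-24-2* -0.30 (limma adjusted p = 0.685, 0.685 and 0.737). miR-24 also comes from a second locus, so that its row does not stand for this cluster alone. These values rest on H3, the lowest high fat rat for all 4, with miR-24 at 3866 and miR-24-2* at 45.0. Without H3 the log2 fold changes were 0.021 for miR-23a, -0.011 for miR-27a, -0.027 for miR-24 and 0.11 for miR-24-2* (limma adjusted p between 0.992 and 0.995).

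Lists of miRNAs with related roles were set beside the family. In limma 0 of all 193 tested miRNAs (0%) passed the adjusted threshold and 2 (1.04%) an unadjusted p under 0.05. Of the 12 myogenic differentiation miRNAs on the array, 0 passed either. Their means were lower in high fat offspring for 9 of the 12, where 154 of all 193 tested miRNAs (79.8%) were lower. Their median log2 fold change was -0.099 against -0.17 for all tested miRNAs, and 0.21 against 0.14 without scaling. Without H3, 6 of the 12 were lower, with a median of -0.0059, where 121 of all 191 tested (63.4%) were lower. As examples with a lower mean, miR-214 had a log2 fold change of -0.55 and miR-27b one of -0.28 (limma adjusted p = 0.685 for both). Without H3 these were -0.40 and -0.039. The log2 fold changes of miR-1, miR-133a and miR-503 were positive, at 0.033, 0.038 and 0.061. Of the 15 miRNAs linked to insulin signalling, 0 passed either threshold (0% and 1.04% of all tested). Of these 15, 13 had a lower mean (79.8% of all tested), with a median of -0.11, or 0.20 without scaling. Without H3, 6 of the 15 were lower (63.4% of all tested), with a median of 0.031. The 3 tested members of the miR-181 family had a median of -0.29, or 0.020 without scaling and -0.18 without H3.

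Since miR-181a is abundant in lymphocytes, the miRNAs of white blood cells were examined too. All 5 of those on the array (miR-142-3p, miR-142-5p, miR-223, miR-150 and miR-146a) were detected in all 12 rats. Their summed scaled signal ran from 1925 to 2619 in control and from 1544 to 2539 in high fat offspring. The 1544 was that of H3, and all other rats lay between 1925 and 2619. In limma 0 of the 5 had an unadjusted p under 0.05, where 2 of all 193 (1.04%) had. Means were lower in high fat offspring for 3 of the 5 (79.8% of all tested). The median log2 fold change was -0.10, or 0.21 without scaling. Without H3, 1 of the 5 was lower (63.4% of all tested), with a median of 0.068. Whole muscle was measured, so that fewer cells of a type and less RNA per cell cannot be told apart, and the part of white blood cells in the miR-181 signals was not tested.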

How the data were processed

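The authors deposited 1 table per array, holding for every miRNA the summed intensity given by the scanner software, an error estimate and whether it was detected. Labelling with Cy3 started from 100 ng of total RNA. Background was already subtracted and spots combined, without normalization between arrays. The deposited series-wide table differed from these intensity values in 0 cells. The 22 control rows were left out. Scaling, floor and filter (detected on at least 6 arrays) were as given in the text, with 1 common factor of 1354 signal units. The groups were compared with limma 3.58.1 in R 4.3.3, and values within arrays with exact permutation tests over all assignments of the rats, or the 400 within slides. Correlations used 100000 permutations. The limma step was tested on simulated data. Figures were drawn with matplotlib 3.10.9. Named miRNAs were the members, the other miR-181 strands, the neighbouring cluster, the 3 miRNAs most like each member detected on all arrays, and list examples. The members, lists and tests were chosen with earlier results of these data known. miR-208b was represented by miR-208b-3p, and miR-155 and miR-486 were not found by name. The number of arrays limits the precision. The scanner software's version is not given in the sources used here.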

Additional observations from a re-analysis of the deposited data

Results flagged for a closer look

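Groups of 6 rats were examined for 1 rat whose gap to its nearest neighbour takes up most of the group's range. Of 38 groups, 6 had such a rat, where chance gives about 1 in 20, or 1.9, for independent groups. These groups hold the same rats, and the pair differences reuse the members' values, so that no excess can be read from the count. For miR-181b, rat H1 at a scaled signal of 92.7 lay above the other high fat rats (36.0 to 56.8). The log2 difference of miR-181a minus miR-181b was 1.59 in H1, where the other high fat rats had 2.01 to 2.14, and 2.24 in control rat C73, where the other controls had 1.75 to 1.93. In H3 the log2 difference of miR-181c minus miR-181d was 0, since both were undetected and set to the floor, with 1.50 to 2.23 in the other high fat rats. H3 also had miR-23a at 6332 (12805 to 15916 in the others) and miR-27a at 4429 (11344 to 13547).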

How the results depend on the processing

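Over 27 alternatives, of which 12 leave out 1 rat each and 1 (undetected miRNAs kept at 0.1) was chosen after the data were seen, as were the values of neighbours and lists without H3, 0 miRNAs passed the adjusted threshold. The count at an unadjusted p under 0.05, 2 as reported, was 6 with quantile normalization, 12 with array weights, 7 when slide was blocked, 5 when slide and row both were, 1 with only miRNAs detected on all arrays, 1 with trend and robust, and 1 to 15 without single rats, the 15 without H1. Without scaling miR-181a turned to 0.10, miR-181b to 0.020 and the shift of miR-181c minus miR-181d to 0.0083, while those of miR-181a and miR-181b minus miR-181d were 0.56 and 0.48 (exact two-sided permutation p = 0.0671 and 0.0628). Array weights gave miR-181b -0.36 (limma, unadjusted p = 0.0466, adjusted p = 0.586). With the floor 4 times higher the shifts of miR-181a and miR-181b minus miR-181d were -0.21 and -0.29, and miR-181d itself could not be fitted, since all its values are then at the floor. Leaving out each rat gave -0.29 to -0.060 for miR-181a, -0.45 to -0.14 for miR-181b, -1.01 to -0.32 for miR-181c and -0.61 to -0.28 for miR-181d, and shifts of -0.023 to 0.39 for miR-181b minus miR-181d (negative without A75) and of -0.43 to 0.065 for miR-181c minus miR-181d (positive without H3). miR-181c and miR-181d stayed negative under each alternative fitted. Other causes were not tested. The other miR-181 strands have no value, being undetected. No paired analysis was possible because the labels give no numbers shared between the groups.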
